A study of Mus musculus with 23 samples.

Results

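The genes described here are 32 listed components of the apoptosis machinery that are not the usual targets of p53: BCL2 family members, caspases, inhibitors, death receptor adaptors, proteins released from mitochondria and apoptotic nucleases. The list was drawn up by function, with earlier results of these data known. Of the 32 genes, 31 had a probe set annotated to that gene alone, out of 18193 genes on the array, and Ripk1 was not analysed here. These 31 genes had 89 probe sets in all, and for each gene the brightest one, by its mean over the 23 arrays, was used. No filter on low values was applied, so all 31 entered every comparison.

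The values are log2 signals from Affymetrix mouse arrays, 1 liver per array. All mice were males of the hemizygous FVB/N-SULT1A1/2 strain, which carries transgenes for the human sulfotransferases SULT1A1 and SULT1A2, so the controls carried them too. The labels give an age of 5 weeks for every animal, at both durations. Treated mice received 1-MIM-OH (1-methoxy-3-indolylmethyl alcohol, a glucosinolate metabolite) by mouth at 26 mg/kg 3 times a week, and control mice received glyceryl trioctanoate, the vehicle, alone. The mice were killed 24 h after the final treatment. The groups were 5 treated and 6 vehicle mice after 10 treatments (21 d), and 6 treated and 6 vehicle mice after 40 treatments (90 d). A further treated 21 d array, excluded by the submitters for hybridisation artefacts, was not analysed here. The series title places the study among comparisons with known genotoxic hepatocarcinogens, and the question here is whether apoptosis genes beyond the p53 targets differed with treatment.

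In the mitochondrial route to apoptosis, BH3-only proteins sense damage and engage the antiapoptotic BCL2 proteins, which frees BAX, BAK and related proteins to open the outer mitochondrial membrane. Released cytochrome c then activates caspase 9 and the executioner caspases, while SMAC and HTRA2 relieve the caspases from their inhibitors. In the death receptor route, adaptors such as FADD bring caspase 8 to the receptor, and in hepatocytes cleavage of BID links this route to the mitochondria.

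Arrays were comparable in overall signal, with medians between 5.53 and 5.61 and within-group correlations between 0.984 and 0.997. Hepatocyte markers were high on every array, with a log2 summed level between 17.63 and 17.72 over 8 markers. In whole liver, fewer cells of a type and less RNA per cell cannot be told apart. The control probe sets for the 3' and the 5' end of Gapdh, whose difference grows when RNA or labelled product is shortened, separated some arrays from the rest. On the 5 treated arrays at 21 d, replicates 1 to 5, the 3' minus 5' difference was 1.18, 0.14, 1.02, 1.23 and 1.45, against 0.09 to 0.49 on the vehicle arrays. The group means were 1.00 ± 0.51 (SD, n = 5) and 0.33 ± 0.13 (SD, n = 6), a difference of 0.67 with a 2-sided exact permutation p = 0.026. At 90 d they were 0.53 ± 0.40 in treated and 0.50 ± 0.15 in vehicle livers (SD, n = 6 each), a difference of 0.03 with a 2-sided exact permutation p = 0.909. Replicate 6 of the treated 90 d mice had 1.24, so 5 arrays exceeded 0.9, all from treated mice.

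Among the 31 genes, Endog rose at both times, Casp6 fell at 21 d, and no other member passed the test in any comparison. The Casp6 call was weak: it held in 4 of 23 fits that left out 1 array, and all low Casp6 values lay on the arrays with a Gapdh difference above 0.9. At 21 d, 2 of 31 members passed (limma, adjusted p under 0.05 over all 45037 probe sets), beside 1.17% of the 18193 genes. This count ran from 1 to 4 when 1 array was left out, with 4 without replicate 2 of the treated mice, and was 5 with array weights and 0 without the arrays above 0.9. Endog was the 1 member higher and Casp6 the 1 lower, beside 0.577% and 0.594% of all genes in these directions. The treated mean was above the vehicle mean in 19 members and below it in 12, with a median log2 difference of 0.10, where the median over all genes was -0.02. At 90 d, 1 of 31 passed, beside 0.748% of all genes. At this time 24 members were above 0 and 7 below, with a median of 0.07 against 0.02 over all genes.

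At an unadjusted p under 0.05, 10 members differed at 21 d, which is 32.3% of them beside 16.6% of all genes. These were Bak1, Bcl2l1, Bcl2l11, Bmf, Endog, Fadd, Htra2 and Tradd, with higher treated means, and Casp6 and Mcl1, with lower ones. That is 8 members higher and 2 lower, where 8.44% and 8.2% of all genes were. At 90 d, 6 members did so, which is 19.4% beside 12.1%. They were Bok, Casp12, Casp9, Endog and Tnfrsf1a on the higher side and Xiap on the lower, where 7.83% and 4.24% of all genes were. Endog alone was in both groups of genes. The list was chosen with earlier results of these data known, so these shares and those given below are no test of the members. Of the 5 treated arrays at 21 d, 4 had a Gapdh difference above 0.9.

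**Figure D1:**
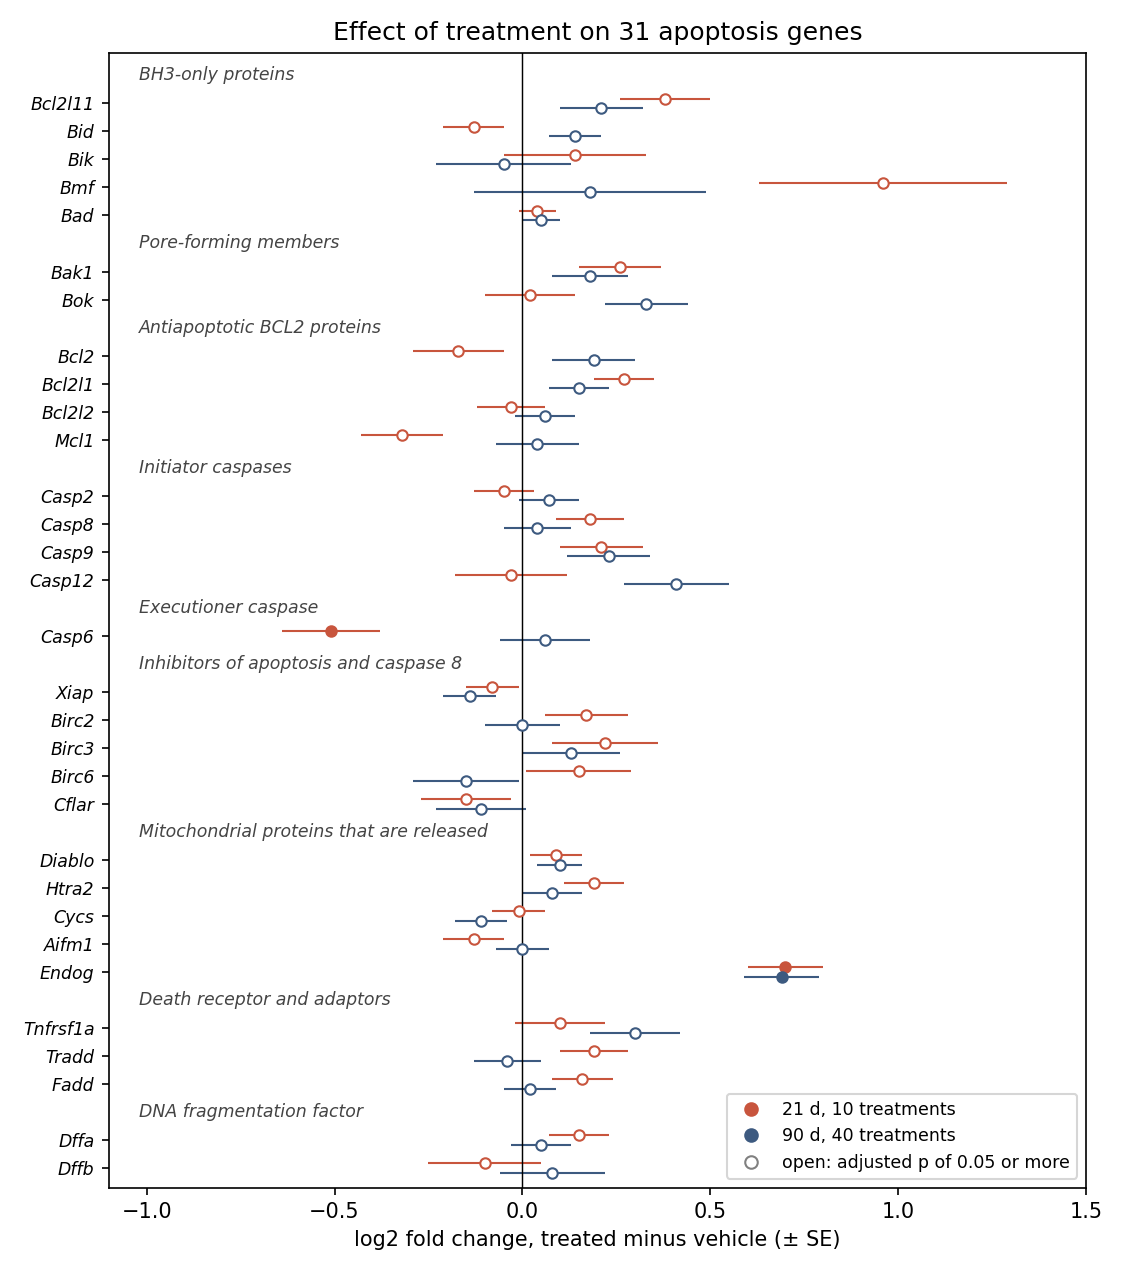
Log2 difference between treated and vehicle livers (x axis, with standard error bars) for the 31 measured genes, ordered by role, at 21 d and 90 d; filled points passed at an adjusted p under 0.05. Endog lies at 0.70 and 0.69, Casp6 at -0.51 and 0.06, and the open points of the other members include Bmf at 0.96 at 21 d.

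The promoters of Endog and Casp6, the members that passed, are shown because their transcripts are those the results turn on. The windows run from 250 bases before to 50 bases after the RefSeq start (GRCm38.p6), both on the plus strand, Endog at chr2:30171274-30171573 and Casp6 at chr3:129901165-129901464. Capitals mark GC boxes (GGGCGG) and CCAAT boxes (CCAAT), searched on both strands, as were TATAAA and the p53 half-site; no marked motif overlaps another.
Endog: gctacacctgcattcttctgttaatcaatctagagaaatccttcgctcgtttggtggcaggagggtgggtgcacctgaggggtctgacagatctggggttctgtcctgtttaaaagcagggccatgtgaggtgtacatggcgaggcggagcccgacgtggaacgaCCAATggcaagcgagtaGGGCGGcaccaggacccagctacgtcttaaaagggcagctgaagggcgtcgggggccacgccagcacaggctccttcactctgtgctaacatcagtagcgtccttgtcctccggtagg
Casp6: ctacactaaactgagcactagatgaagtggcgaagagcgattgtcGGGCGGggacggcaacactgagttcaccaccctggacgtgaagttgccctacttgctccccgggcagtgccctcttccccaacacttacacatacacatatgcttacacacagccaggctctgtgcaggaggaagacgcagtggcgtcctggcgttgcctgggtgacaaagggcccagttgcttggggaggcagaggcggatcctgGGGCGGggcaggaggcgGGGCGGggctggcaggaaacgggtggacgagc
The Endog window held 1 GC box and 1 CCAAT box, and the Casp6 window held 3 GC boxes. Neither held a TATAAA or a match to the p53 half-site. Of 39 windows of 29 members, 61.5% held a GC box, against 35.7% of all 32851 windows, and 35.9% held a CCAAT box, against 37.4%. TATAAA was found in 5.13% of the member windows and 13.6% of all, and a p53 half-site in 5.13% and 8.36%. Such matches describe the letters of the window, not binding.

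Endog encodes endonuclease G, a mitochondrial nuclease that can move to the nucleus and cut DNA. On the vehicle arrays at 21 d its log2 signal had a lowest value of 10.60, a median of 10.76 and a highest value of 10.99. The treated arrays had 11.75, 11.30, 11.79, 11.28 and 11.33. All 5 treated livers therefore lay above all 6 vehicle livers, on the array with a low Gapdh difference (11.30) as on the others. At 90 d the vehicle arrays ran from 10.71 over a median of 10.82 to 10.97, and the treated arrays from 11.22 over 11.56 to 11.68. The groups did not overlap at this time either. Treated and vehicle arrays without overlap were found for 2.81% of all genes at 21 d and 1.35% at 90 d.

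The mean Endog signal was 10.79 ± 0.15 (SD, n = 6) in vehicle and 11.49 ± 0.26 (SD, n = 5) in treated livers at 21 d, a log2 difference of 0.70 ± 0.10 (SE), or 1.63-fold (limma adjusted p = 0.00236). At 90 d the means were 10.82 ± 0.09 and 11.52 ± 0.18 (SD, n = 6 each), a difference of 0.69 ± 0.10, or 1.61-fold (limma adjusted p = 0.000537). The effects at the 2 times differed by -0.01 ± 0.14 (limma adjusted p = 0.981), and the vehicle groups by 0.04 ± 0.10. Groups without overlap and with 1 direction at both times were found for 0.242% of all genes, and 0.203% passed at both times in 1 direction.

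The second Endog probe set, annotated to the gene alone as well, gave 0.48 at 21 d (limma adjusted p = 0.0414) and 0.74 at 90 d (limma adjusted p = 0.000915). Its vehicle arrays ran from 10.21 to 10.54 and its treated arrays from 10.46 to 11.14 at 21 d, with overlap. At 90 d they ran from 10.18 to 10.44 and from 10.70 to 11.33, without overlap. Endog passed at both times whichever of the 23 arrays was left out, with differences of 0.63 to 0.76 at 21 d and 0.66 to 0.75 at 90 d. With the Gapdh difference as a covariate the 21 d difference was 0.67 (limma adjusted p = 0.019). Without the 5 arrays above 0.9, which leaves 1 treated array at 21 d, it was 0.51 and did not pass (limma adjusted p = 0.126).

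None of the other 4 proteins released from mitochondria passed. Diablo, which encodes SMAC, differed by 0.09 ± 0.07 at 21 d and 0.10 ± 0.06 at 90 d (SE). Htra2, a serine protease, differed by 0.19 ± 0.08 (limma adjusted p = 0.248) and 0.08 ± 0.08. Cycs, the somatic cytochrome c, differed by -0.01 ± 0.07 and -0.11 ± 0.07, and Aifm1, the apoptosis-inducing factor, by -0.13 ± 0.08 and 0.00 ± 0.07. The differences of these 4 genes lay between -0.13 and 0.19.

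Casp6 encodes caspase 6, an executioner caspase, and it fell at 21 d. The vehicle arrays at 21 d had a lowest value of 9.77, a median of 9.86 and a highest value of 9.99, and the treated arrays had 9.17, 9.80, 9.12, 9.41 and 9.32. Replicate 2 lay within the vehicle range and the other 4 treated livers lay below it. The means were 9.88 ± 0.08 (SD, n = 6) and 9.36 ± 0.27 (SD, n = 5), a difference of -0.51 ± 0.13 (SE), or 0.701-fold (limma adjusted p = 0.0484). At 90 d the vehicle arrays ran from 9.63 over a median of 9.83 to 10.01, and the treated arrays from 9.25 over 9.94 to 10.16. These groups overlapped, and the difference was 0.06 ± 0.12 (limma adjusted p = 0.911).

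The low Casp6 values lay on the arrays with a high Gapdh difference. On the 5 arrays above 0.9, which are replicates 1, 3, 4 and 5 at 21 d and replicate 6 at 90 d of the treated mice, Casp6 ran from 9.12 to 9.41. On the other 18 arrays it ran from 9.63 to 10.16, so these ranges did not overlap. Within groups, Casp6 had a slope of -0.56 ± 0.09 (SE) per log2 unit of the Gapdh difference (limma adjusted p = 0.000495, a fit added after the data were seen). With the Gapdh difference as a covariate the 21 d effect was -0.14 (limma adjusted p = 0.783), and without the 5 arrays it was -0.08 (limma adjusted p = 0.918). That last fit keeps 1 treated 21 d array, assumed to vary like the other groups, so it has no replicate check. Endog ran from 11.28 to 11.79 on the same 5 arrays and had a slope of 0.05. At 21 d, 4 of the 5 treated arrays and no vehicle array exceeded 0.9, so treatment and the Gapdh difference cannot be told apart. The cause of the low Casp6 values was not tested.

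The Casp6 call lay close to the threshold. It passed in 4 of the 23 fits that left out 1 array, namely those without replicate 2 of the treated 21 d mice or without replicate 1, 3 or 6 of the treated 90 d mice. The difference over all 23 fits was between -0.62 and -0.45, with limma adjusted p between 0.00697 and 0.125. The other probe set of Casp6 was dim, between 3.67 and 4.16 on every array, and differed by 0.05 at 21 d. The call was also lost with arrays centred on their medians (-0.50, limma adjusted p = 0.0512) and with the mean of both probe sets (-0.23, limma adjusted p = 0.119). The direction of the main probe set was kept in all 23 fits.

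Of the 31 members, 3 had a slope on the Gapdh difference that passed, beside 9.75% of all genes. Besides Casp6 these were Tnfrsf1a at -0.40 ± 0.12 (limma adjusted p = 0.0402) and Birc6 at 0.45 ± 0.14 (limma adjusted p = 0.0417).

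**Figure D2:**
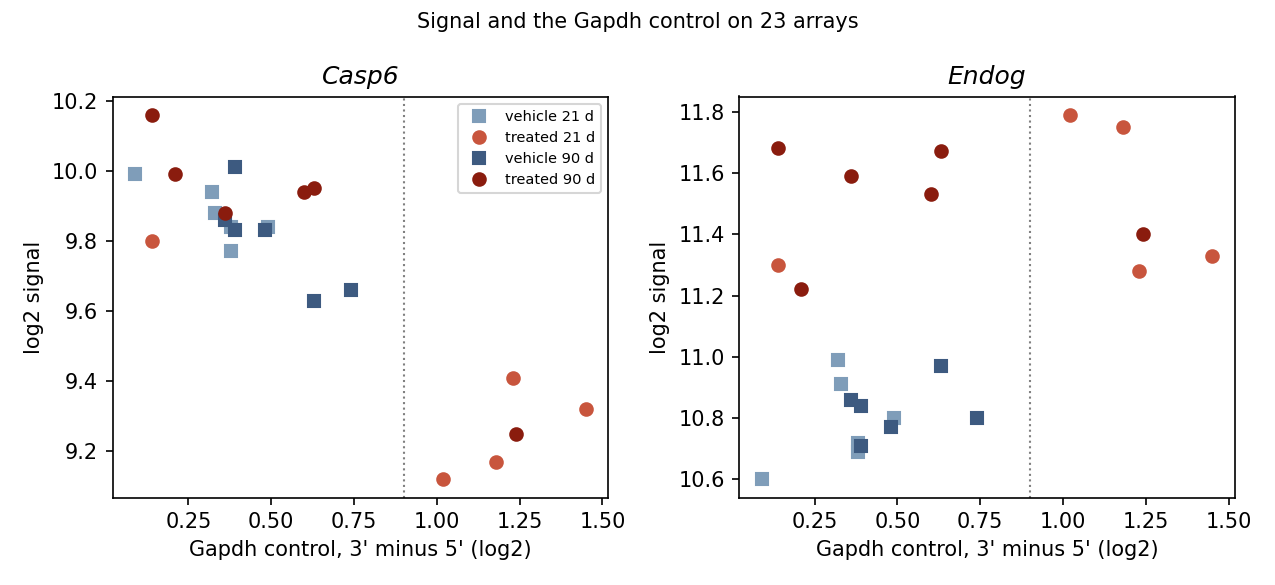
Log2 signal of Casp6 and of Endog (y axes) against the Gapdh control difference, 3' minus 5' (x axis, log2), on each of the 23 arrays, by group, with a dotted line at 0.9. Casp6 lies at 9.12 to 9.41 on the 5 arrays right of the line and at 9.63 to 10.16 on the 18 others, whereas Endog lies at 11.28 to 11.79 on those 5 and at 10.60 to 11.68 on the others.

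None of the 5 BH3-only genes passed, with 4 above 0 at each time and a median of 0.14 at both. Bmf, whose protein is bound to the cytoskeleton and released under stress, had the widest spread. Its vehicle arrays at 21 d ran from 6.86 over a median of 7.40 to 8.10, and its treated arrays had 8.99, 7.20, 9.36, 8.55 and 8.0. The treated values above the vehicle range were those of replicates 1, 3 and 4, each with a Gapdh difference above 0.9. Replicate 5, with the highest Gapdh difference of 1.45, lay within the vehicle range, as did replicate 2. The slope of Bmf on the Gapdh difference was 0.32 ± 0.38 (SE) and did not pass (limma adjusted p = 0.682). The difference was 0.96 ± 0.33 (SE, limma adjusted p = 0.144), the largest among members at 21 d in either direction.

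The Bmf value depended on replicate 2, the treated 21 d array with the low Gapdh difference: without it the difference was 1.26 (limma adjusted p = 0.0203). Without the 5 arrays above 0.9 replicate 2 is the 1 treated array left, and the difference was -0.26. The Bmf probe set with no suffix for possibly shared probes gave -0.15. The vehicle arrays at 90 d ran from 6.41 over 7.66 to 8.21 and the treated arrays from 7.21 over 7.64 to 8.07, overlapping throughout, with a difference of 0.18 ± 0.31 (SE).

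Bcl2l11 encodes BIM, which binds all antiapoptotic BCL2 proteins. Its vehicle arrays at 21 d ran from 7.30 over 7.56 to 7.78, and its treated arrays had 8.06, 7.81, 8.21, 7.73 and 7.80. Of the 5 treated livers, 4 lay above the vehicle range, replicate 2 among them. The difference was 0.38 ± 0.12 (SE, limma adjusted p = 0.111). The second brightest of its 5 probe sets was at 0.28, and the 3 dim ones, with mean signals of 4.07 to 5.41, were between -0.06 and -0.04. After 90 d the vehicle arrays ran from 7.16 over 7.28 to 7.57 and the treated arrays from 7.20 over 7.54 to 7.87, with overlap, and all 5 probe sets were above 0, at 0.21 ± 0.11 in the one used.

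Bid, the link from death receptors to mitochondria, was at -0.13 ± 0.08 at 21 d and 0.14 ± 0.07 at 90 d. Bik, a BH3-only protein of the endoplasmic reticulum, was at 0.14 ± 0.19 and -0.05 ± 0.18. Bad, which survival kinases hold inactive, was at 0.04 ± 0.05 and 0.05 ± 0.05. None of these 3 passed, although 3 of the 5 treated Bid values at 21 d (8.30, 8.37 and 8.35) lay below the vehicle minimum of 8.39. They were those of replicates 1, 3 and 4, each with a Gapdh difference above 0.9. Replicate 5, also above 0.9, had 8.40 and lay within the vehicle range. The slope of Bid on the Gapdh difference was -0.14 ± 0.09 (SE) and did not pass (limma adjusted p = 0.36).

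**Figure D3:**
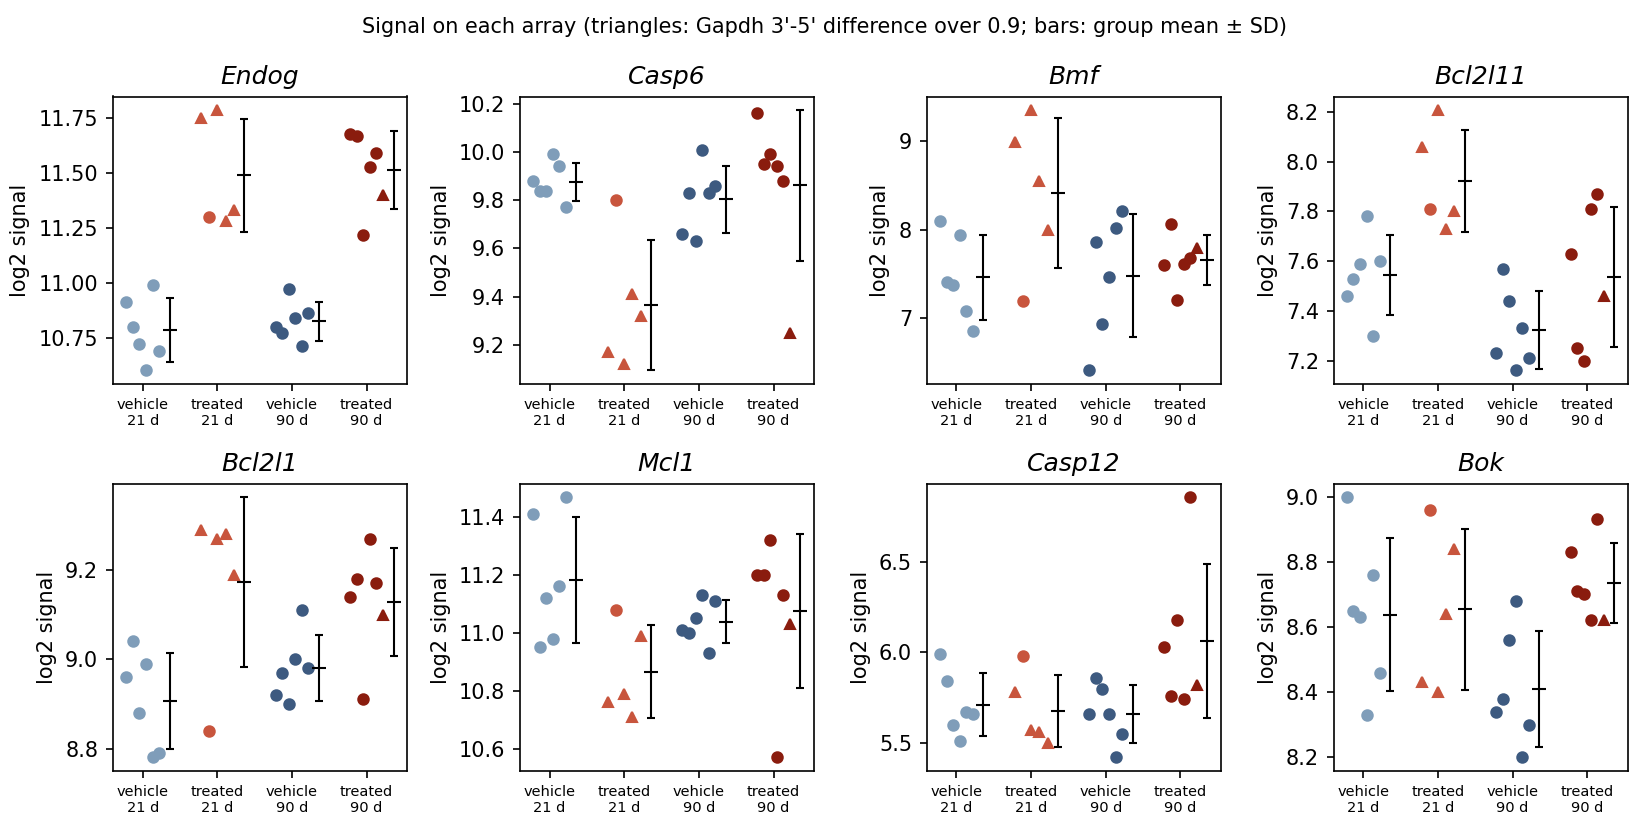
Log2 signal (y axis) of 8 members on each array, in vehicle and treated livers at 21 d and 90 d, with mean ± SD; triangles mark the 5 arrays with a Gapdh 3' minus 5' difference over 0.9. For Endog all treated points lie above all vehicle points at both times, and for Casp6 the triangles, at 9.12 to 9.41, lie below all other points.

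Neither measured pore-forming gene passed. Bak1, which opens the outer mitochondrial membrane, was at 0.26 ± 0.11 (SE, limma adjusted p = 0.231) at 21 d and 0.18 ± 0.10 at 90 d. Bok, a relative that is active without BH3-only proteins, had vehicle arrays from 8.33 over 8.64 to 9.0 at 21 d and treated values of 8.43, 8.96, 8.40, 8.64 and 8.84. These overlapped throughout, at 0.02 ± 0.12 (SE), a sign that turned to -0.01 after quantile normalization. The 90 d vehicle arrays of Bok ran from 8.20 over 8.36 to 8.68 and the treated arrays from 8.62 over 8.70 to 8.93. The groups overlapped only between 8.62 and 8.68, and the difference of 0.33 ± 0.11 did not pass (limma adjusted p = 0.244).

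None of the 4 antiapoptotic BCL2 genes passed. Bcl2l1 encodes BCL-XL, a main survival factor of hepatocytes. Its vehicle arrays at 21 d ran from 8.78 over 8.92 to 9.04, and its treated arrays had 9.29, 8.84, 9.27, 9.28 and 9.19. Replicate 2 lay within the vehicle range and the other 4 above it. The difference was 0.27 ± 0.08 (SE, limma adjusted p = 0.0934), and 0.35 without replicate 2 (limma adjusted p = 0.00796). The 4 high arrays are those with a Gapdh difference above 0.9, and the slope of Bcl2l1 on that difference was 0.17 (limma adjusted p = 0.237). At 90 d it was at 0.15 ± 0.08. The other Bcl2l1 probe sets, dim with mean signals of 4.15 to 5.46, were at -0.03, 0.09 and 0.01 at 21 d.

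Mcl1 encodes a short-lived protein on which hepatocyte survival also depends, and its values lay in the other direction at 21 d. The vehicle arrays ran from 10.95 over 11.14 to 11.47, and the treated arrays had 10.76, 11.08, 10.79, 10.71 and 10.99. Replicates 1, 3 and 4, each with a Gapdh difference above 0.9, lay below the vehicle range. Replicate 5, also above 0.9, and replicate 2, with a Gapdh difference of 0.14, lay within it. The difference was -0.32 ± 0.11 (SE, limma adjusted p = 0.16), and 4 of its 6 probe sets had this sign. Vehicle arrays at 90 d ran from 10.93 over 11.03 to 11.13 and the treated arrays from 10.57 over 11.16 to 11.32, so the treated livers lay on both sides of the vehicle range. The difference was 0.04 ± 0.11, the lowest among the 6 Mcl1 probe sets at 90 d. All 6 were above 0 there, the others between 0.07 and 0.37, and none passed.

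Bcl2, after which the family is named, holds BH3-only and pore-forming proteins in check. Its vehicle arrays ran from 6.17 over 6.31 to 6.52 at 21 d, and its treated arrays had 6.05, 6.62, 5.78, 6.32 and 5.97. The treated livers lay both below and above the vehicle range, at -0.17 ± 0.12 (SE). Those below were replicates 1, 3 and 5, each with a Gapdh difference above 0.9, and replicate 2 lay above. Replicate 4, also above 0.9, lay within the vehicle range. The slope of Bcl2 on the Gapdh difference was -0.25 ± 0.13 (SE) and did not pass (limma adjusted p = 0.258). After 90 d its vehicle arrays ran from 6.12 over 6.18 to 6.47 and the treated arrays from 6.20 over 6.38 to 6.77, at 0.19 ± 0.11. The groups overlapped at both times. Bcl2l2, which encodes the survival protein BCL-W, was at -0.03 ± 0.09 and 0.06 ± 0.08.

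Among the 4 initiator caspases none passed, and all 4 were above 0 at 90 d. Casp12, a caspase of the endoplasmic reticulum, had vehicle arrays from 5.51 over 5.66 to 5.99 at 21 d and treated values of 5.78, 5.98, 5.57, 5.56 and 5.50, which overlapped. At 90 d its vehicle arrays ran from 5.42 over 5.66 to 5.86 and its treated arrays from 5.74 over 5.93 to 6.86. The treated livers reached above the vehicle range at a difference of 0.41 ± 0.14 (SE, limma adjusted p = 0.277), which was 0.25 without the highest array, replicate 5. The other Casp12 probe set was at 0.48 at 90 d. Both probe sets were dim, with mean signals of 5.78 in the one used and 5.26 in the other.

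Casp9, which cytochrome c activates through APAF1, was at 0.21 ± 0.11 at 21 d and 0.23 ± 0.11 at 90 d (limma adjusted p = 0.362 and 0.442). Casp8, the initiator at death receptors, was at 0.18 ± 0.09 and 0.04 ± 0.09. Casp2 was at -0.05 ± 0.08 and 0.07 ± 0.08. The Casp9 values were close to each other at the 2 times, and neither passed. The other Casp9 probe sets were at 0.01 and -0.11 at 21 d and at 0.04 and -0.03 at 90 d.

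None of the 5 inhibitors passed. Xiap, which binds and blocks caspases directly, had vehicle arrays from 10.80 over 10.98 to 11.08 at 21 d and treated values of 10.87, 10.93, 10.85, 10.86 and 10.89. At 90 d the vehicle arrays ran from 10.92 over 10.97 to 11.16 and the treated arrays from 10.63 over 10.88 to 11.11. The groups overlapped at both times, with differences of -0.08 ± 0.07 and -0.14 ± 0.07 (SE, limma adjusted p = 0.666 and 0.475). At 90 d, 6 of the 7 Xiap probe sets were below 0.

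Birc6, a very large ubiquitin ligase that also binds caspases, had vehicle arrays from 8.62 over 9.0 to 9.30 and treated values of 9.39, 8.83, 9.18, 9.09 and 9.17 at 21 d. At 90 d the vehicle arrays ran from 8.99 over 9.09 to 9.49 and the treated arrays from 8.52 over 9.10 to 9.45. The differences were 0.15 ± 0.14 and -0.15 ± 0.14 (SE), with overlap at both times. With the Gapdh difference as a covariate the 21 d value was -0.16.

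Cflar encodes cFLIP, which competes with caspase 8 at death receptors. Its vehicle arrays ran from 10.08 over 10.39 to 10.56 at 21 d, with treated values of 10.26, 9.94, 10.20, 10.65 and 10.13. At 90 d they ran from 10.09 over 10.28 to 10.57 and from 9.83 over 10.22 to 10.50. The groups overlapped at both times, at -0.15 ± 0.12 and -0.11 ± 0.12 (SE). Of the 5 Cflar probe sets, 2 were below 0 at 21 d and 4 at 90 d. Birc2 was at 0.17 ± 0.11 and 0.00 ± 0.10, and Birc3 at 0.22 ± 0.14 and 0.13 ± 0.13; both encode ubiquitin ligases of TNF receptor signalling.

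The TNF receptor Tnfrsf1a and the adaptors Tradd and Fadd were all above 0 at 21 d without passing. Tnfrsf1a was at 0.10 ± 0.12 at 21 d and 0.30 ± 0.12 at 90 d (SE, limma adjusted p = 0.777 and 0.35). Replicate 2 at 21 d, with the low Gapdh difference, had the highest Tnfrsf1a value of its group, 11.10, while the other 4 treated arrays lay at or below 10.45. Tradd, which binds the receptor, was at 0.19 ± 0.09 and -0.04 ± 0.09, and Fadd, which recruits caspase 8, at 0.16 ± 0.08 and 0.02 ± 0.07. The other Tradd probe sets were at -0.09 and -0.07 at 21 d.

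The DNA fragmentation factor, a nuclease that executioner caspases release from its inhibitor, showed no passing change in either subunit. Dffa, the inhibitor subunit, was at 0.15 ± 0.08 and 0.05 ± 0.08, and Dffb, the nuclease subunit, at -0.10 ± 0.15 and 0.08 ± 0.14 (SE). Endog was therefore the 1 nuclease of the list whose transcript passed.

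Counted over all 89 probe sets, 3 passed at 21 d, 2 for Endog and 1 for Casp6, and 2 passed at 90 d, both for Endog, beside 0.957% and 0.502% of all 45037 probe sets. The medians were 0.02 and 0.05, with 48 above and 40 below 0 at 21 d and 56 above and 30 below at 90 d. Of the 25 members with more than 1 probe set, all had the same sign in 9 at 21 d and in 14 at 90 d. A mean signal under 6 was found for 35 of the 89.

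**Figure D4:**
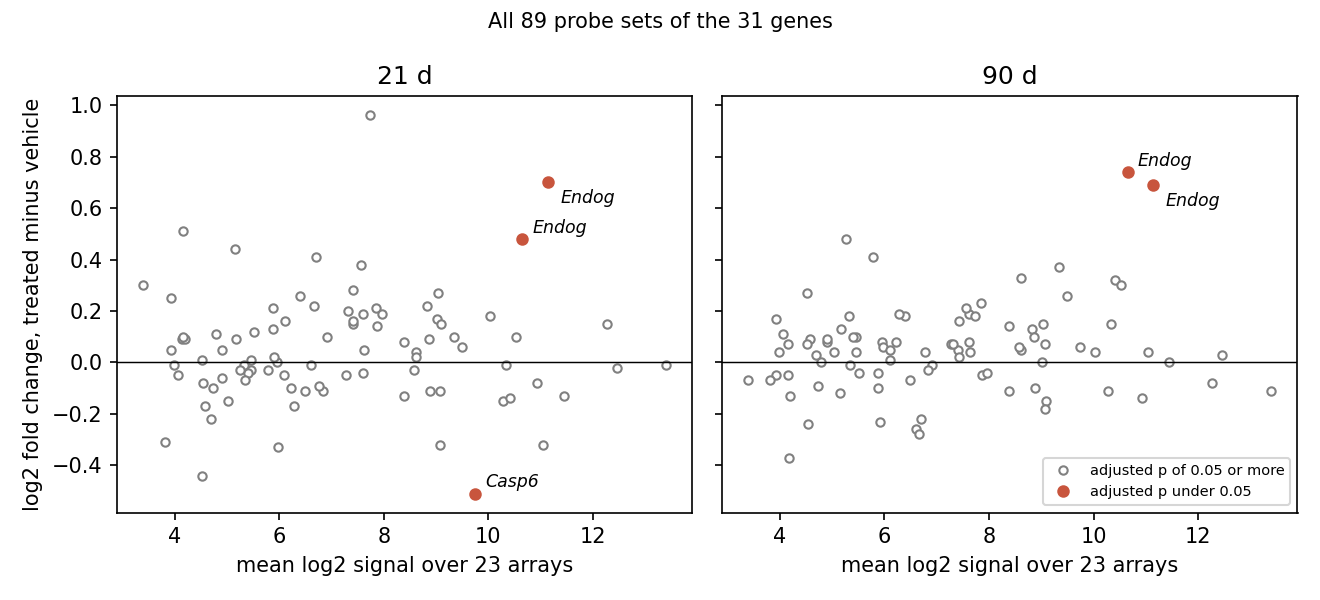
Log2 difference between treated and vehicle livers (y axis) against the mean log2 signal over the 23 arrays (x axis) for the 89 probe sets of the 31 genes, at 21 d and 90 d. Both Endog probe sets pass at both times, at 0.70 and 0.48 and at 0.69 and 0.74, and the bright Casp6 probe set passes at 21 d, whereas its dim one lies at 0.05.

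No member's treatment effect differed between 21 d and 90 d at an adjusted p under 0.05 (limma), beside 0% of all genes. The smallest adjusted p among members was 0.492. At an unadjusted p under 0.05 there were 5 members, which is 16.1% beside 8.64% of all genes: Bcl2, Bid, Casp12, Casp6 and Mcl1. Each had a higher effect at 90 d, as 5.56% of all genes did. For Casp6 the difference of effects was 0.57 ± 0.17 (SE, limma adjusted p = 0.492), so its fall at 21 d and its value of 0.06 at 90 d were not shown to differ. The largest in size was Bmf at -0.78 ± 0.46.

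Between vehicle livers at 90 d and at 21 d no member passed either (limma), beside 0.011% of all genes. Bid, Bik, Bok and Tradd had an unadjusted p under 0.05, which is 12.9% of the members beside 6.43%. Tradd was at 7.80 ± 0.06 at 21 d and 8.05 ± 0.09 at 90 d (SD, n = 6 each), without overlap, as for 0.808% of all genes. The other Tradd probe sets differed by 0.01 and -0.07 between the vehicle groups. Bik was at 8.08 ± 0.21 and 7.65 ± 0.39. The vehicle groups differ in duration and in number of vehicle treatments, and these cannot be told apart.

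Of 37 other apoptosis genes, 31 were measured, and none passed at either time (limma). At an unadjusted p under 0.05 there were 2 at 21 d and 4 at 90 d, which is 6.45% and 12.9% of the list beside 16.6% and 12.1% of all genes. At 21 d, 13 were above 0 and 18 below, with a median of -0.05, and the largest differences were Bbc3, which encodes PUMA, at 0.42 ± 0.13 (limma adjusted p = 0.103) and Bag3, a co-chaperone, at -0.29 ± 0.21. At 90 d, 21 were above and 10 below, with a median of 0.07. The largest there were Mlkl, the effector of necroptosis, at 0.56 ± 0.27, and Apaf1, the scaffold that activates caspase 9, at 0.54 ± 0.17 (limma adjusted p = 0.494 and 0.202).

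Of 16 genes for subunits, activators, feedback inhibitors and targets of NF-kappaB, which TNF receptor signalling activates, 15 were measured and none passed at either time (limma). At an unadjusted p under 0.05 there were 2 at 21 d and 1 at 90 d, which is 13.3% and 6.67% of the list beside 16.6% and 12.1% of all genes. The medians were 0.01 and 0.09. The largest at 21 d were Ikbkb, a kinase that activates NF-kappaB, at 0.28 ± 0.07 (limma adjusted p = 0.0543) and Icam1, an adhesion molecule, at 0.26 ± 0.31. At 90 d they were Icam1 at 0.50 ± 0.29 and Tnip1, an inhibitor, at 0.35 ± 0.11 (limma adjusted p = 0.593 and 0.187).

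Markers of liver cell types, hepatocytes included, were set beside these values. Of 49 listed markers, 43 were measured and none passed for treatment at either time. The 6 Kupffer cell markers were all below 0 at 21 d, with a median of -0.44 and a log2 summed level of 11.62 to 13.57 in vehicle and 11.19 to 14.06 in treated livers. After 90 d all 6 were above 0, with a median of 0.36 and levels of 11.47 to 13.07 and 11.47 to 13.11. All 5 T or NK cell markers and all 5 endothelial markers were also below 0 at 21 d, with medians of -0.07 and -0.15. Of the 8 hepatocyte markers, 7 were below 0 at 21 d and 8 at 90 d, with medians of -0.05 and -0.03. Over all genes, 43.7% were above 0 at 21 d and 57.2% at 90 d. The 5 neutrophil markers summed to 7.70 to 9.81 in vehicle and 7.81 to 11.90 in treated livers at 21 d. The part of these cells in the apoptosis gene values was not tested.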

How the data were processed

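RNA from 23 mouse livers was hybridised to 1 array each. Deposited values are log2 signals, for which the authors used Partek and RMA (robust multi-array average), per the submitters' processing notes; the sources used here give no versions, and the base of the log was inferred from the values. Of 45101 probe sets, 64 controls were left out. The platform's annotation paired 34945 of the 45037 others with 1 gene, 932 with several and 9160 with none; 34741 were matched to RefSeq (GRCm38.p6), which also gave the promoter windows.

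Group means were fitted with limma 3.58.1 (lmFit, eBayes) in R 4.3.3 over all 23 arrays (19 residual degrees of freedom), with 4 contrasts and Benjamini-Hochberg adjustment over 45037 probe sets. Differences are in log2 units with the moderated standard error (SE). The fit was tested on simulated data. Gapdh differences were compared with 2-sided exact permutation tests (SciPy 1.17.1). No 2 arrays were identical. The number of arrays limits the precision.

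The members and lists were chosen with earlier results of these data known. Array values (each treated 21 d array, and the lowest, median and highest of groups of 6) are given for members that passed, for the 3 largest each way at each time, and for groups without overlap at both times; Bcl2l1 and, in part, Bid and Tnfrsf1a were added after their values were seen. Of genes of the other lists, those that passed were to be named, or else the largest 2. The probe sets chosen, filters, normalization, samples, array weights, a replicate block, a Gapdh covariate and left-out arrays were varied. Same-numbered arrays come from different mice and were not treated as pairs.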

Additional observations from a re-analysis of the deposited data

Results flagged for a closer look

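In 132 groups of values tested for 1 array far from the others, 8 such arrays were found; chance gives about 1 in 20 groups. At 21 d, 3 were in the treated group. Bcl2l1 was 8.84 on replicate 2, against 9.19 to 9.29 on the other 4 arrays. On the same array the 3' minus 5' difference of beta-actin was 1.51, against 2.44 to 2.69. Dffa was 7.89 on replicate 4, against 7.40 to 7.46.

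At 90 d, 5 were in the treated group. Casp6 was 9.25 on replicate 6, against 9.88 to 10.16, and this is the treated 90 d array with a Gapdh difference of 1.24; without it the 90 d difference of Casp6 was 0.18 (limma adjusted p = 0.466). Dffb was 5.99 on the same array, against 6.24 to 6.36. Birc2 was 8.56 on replicate 1, against 9.02 to 9.23, and Cycs was 13.66 there, against 13.25 to 13.36. Dffa was 7.71 on replicate 4, against 7.25 to 7.42.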

How the results depend on the processing

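The Endog call at 90 d was kept under all alternatives run, and at 21 d under all except the one without the 5 arrays above 0.9. Casp6 passed at 21 d in 4 of 23 fits that left out 1 array and under 5 of the 11 other alternatives. The alternative with no shared-probe suffix kept the same probe sets for Endog and Casp6, so for these genes it repeats the main result. The number of members passing at 21 d, 2 as reported, was 1 with the mean of a gene's probe sets, with arrays centred on their medians, with only the compared groups fitted and with the Gapdh covariate. It was 5 with array weights (Bcl2l1, Bcl2l11, Bmf, Casp6 and Endog) and 0 without the arrays above 0.9, and ran from 1 to 4 when 1 array was left out, with 4 (Bcl2l1, Bmf, Casp6 and Endog) without replicate 2 of the treated 21 d mice.

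Over all probe sets, 431 passed at 21 d: 813 with a mean signal of at least 6, 207 with only the compared groups, 1426 with array weights, 123 with the Gapdh covariate, and 133 to 2265 with 1 array left out. At 90 d 226 passed: 149, 463 and 504 with the compared groups, array weights and covariate, 761 without the arrays above 0.9, and 114 to 389 with 1 array left out. The difference of effects had 0 passing (limma; 4320 at an unadjusted p under 0.05), 6 without the arrays above 0.9, and 0 to 53 with 1 left out. The vehicle comparison had 3 passing: 6 with the signal minimum, 8 with median centring, 6 with quantile normalization, 20 with the compared groups, 7 with a variance trend, 32 with array weights, 18 without the arrays above 0.9, and 0 to 16 with 1 left out. The Gapdh difference at 21 d ran from 0.56 to 0.89 with 1 array left out, with an exact permutation p of 0.0571 without any of treated replicates 1, 3, 4 or 5. At 90 d it ran from -0.11 to 0.11, and beta-actin gave -0.05.

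The labels' replicate numbers were taken as names, not as pairs of animals. Deviations of same-numbered arrays correlated between -0.36 and -0.14 in 11 pairs, and none correlated best with its own number. All these correlations were negative, so this check does not show that the numbers carry no structure. With the number as a replicate block, 1 member passed at 21 d (Endog) and 1 at 90 d; over all probe sets 91, 148, 0 and 0 passed in the 4 contrasts, and Casp6 was at -0.56 (limma adjusted p = 0.061).

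Signs that turned belonged to differences that did not pass. With the mean of probe sets these were Endog (0.12), Bcl2l11 (0.03) and Cflar (-0.13) for the difference of effects, Bcl2 (0.02) and Cflar (0.02) at 21 d, and Endog (-0.01), Bmf (-0.01) and Cflar (0.12) between vehicle groups. With the covariate they were Bcl2 (0.00), Casp12 (0.17) and Birc6 (-0.16) at 21 d, Endog (0.02) for the difference, and Casp6 (0.02) and Bmf (-0.03) between vehicle groups. Without the arrays above 0.9 they were Bmf (-0.26), Bcl2 (0.30), Casp12 (0.27) and Birc6 (-0.16) at 21 d, and Endog (0.20), Bmf (0.41) and Bcl2 (-0.08) for the difference. With no shared-probe suffix Bmf was at -0.15 at 21 d, 0.19 for the difference and -0.09 between vehicle groups. Bok at 21 d was at -0.01 with quantile normalization, -0.06 with array weights and -0.01 with the replicate block. With 1 array left out, Bmf ran from -0.04 to 0.32 at 90 d and from -0.12 to 0.24 between vehicle groups, Bok at 21 d from -0.06 to 0.09, Casp12 at 21 d from -0.11 to 0.02 and between vehicle groups from -0.09 to 0.00, Casp6 at 90 d from 0.00 to 0.18, Mcl1 at 90 d from -0.01 to 0.14, and the differences of effects of Cflar from -0.03 to 0.15 and of Endog from -0.07 to 0.06. The causes were not tested, beyond fewer arrays or probe sets where the alternative removes them. Signal over background was not analysed here, so dim probe sets limit what can be said of their genes.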
